A study of Mus musculus with 14 samples.

Results

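Ribosomes of the cytoplasm are built from ribosomal RNA and a set of proteins, each encoded by its own gene, and the genes of those proteins were followed here in the hippocampus of mice with and without a Kmt2d mutation and with and without an LSD1 inhibitor. Members were taken by symbol from the authors' gene tables: every symbol made of Rpl or Rps, a number and at most 1 closing letter with a digit, together with Rpsa, Rplp0, Rplp1 and Rplp2. Pseudogenes named with a -ps ending and the S6 kinases were left out by this rule. It gave 86 symbols of 53321, 50 of the large and 36 of the small subunit. The rule used symbols and no measured value, though the members were chosen with earlier results of these data known. All 86 were matched by symbol to GENCODE M21 (GRCm38): 82 are annotated as protein coding and 4 as pseudogenes (Rps4l, Rps12l1, Rps3a2 and Rps3a3). The genes lie on 19 chromosomes, with 15 on chromosome 7 and 4 on the X chromosome.

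RNA from the hippocampus of 14 C57BL6 mice was sequenced, 1 library per sample. The mice were KMT2D+/+ (wild type) or KMT2D+/bGeo, which carry a gene trap allele of the histone methyltransferase gene Kmt2d on 1 chromosome (mutant). From 2 weeks of age and for 2 weeks, gavage delivered either methylcellulose, the vehicle, or TAK-418 at 1 mg/kg/day, and the mice were 30 days old per the labels. TAK-418 blocks LSD1, the enzyme encoded by Kdm1a that removes methyl groups from histones. Vehicle was given to 3 wild-type and 3 mutant mice, and TAK-418 to 5 wild-type and 3 mutant mice; within a group, libraries are numbered here in the order of the deposit, and the numbers pair nothing. The labels do not say whether samples came from separate litters or days, so p-values measure the spread between these samples. The gene trap allele is carried by every cell of the mutant mice, and the tissue is a mixture of cell types: fewer cells of a type and less RNA per cell cannot be told apart in these values.

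The proteins of the small subunit read the mRNA, those of the large subunit surround the site where peptide bonds form, and the stalk proteins Rplp0, Rplp1 and Rplp2 recruit the elongation factors. Ribosomal protein mRNAs are short and abundant, and most start with a cytosine followed by a stretch of pyrimidines, the 5′ terminal oligopyrimidine (TOP) motif, through which mTORC1 signalling controls their translation. Some members have paralogs used in special tissues, such as Rpl3l in striated muscle and Rpl10l and Rpl39l in the testis.

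The start of the gene is where the members share a visible sequence feature, so the 30 bases around RefSeq's annotated start (GRCm38.p6) are printed for the members that the results turn on and for several others; the 16th base is the annotated start. RefSeq's promoter table held 74 starts for 62 of the 86 members. Capitals mark an unbroken run of C and T that overlaps the start base. 7 genes with a run of 8 or more and 5 with no run at the annotated start are shown, read 5′ to 3′ on the gene's strand.
Rpl7a (chr2:26910792-26910821, plus strand): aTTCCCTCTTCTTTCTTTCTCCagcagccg
Rpl15 (chr14:18270972-18271001, minus strand): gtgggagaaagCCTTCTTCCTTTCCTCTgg
Rpl35 (chr2:39005117-39005146, minus strand): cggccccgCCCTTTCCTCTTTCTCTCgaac
Rpl27a (chr7:109519180-109519209, plus strand): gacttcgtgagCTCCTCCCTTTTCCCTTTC
Rps6 (chr4:86857353-86857382, minus strand): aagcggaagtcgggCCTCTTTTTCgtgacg
Rps10 (chr17:27635230-27635259, minus strand): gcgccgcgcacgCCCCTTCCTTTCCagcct
Rpl28 (chr7:4792950-4792979, plus strand): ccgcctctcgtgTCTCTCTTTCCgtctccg
Rpl5 (chr5:107900513-107900542, plus strand): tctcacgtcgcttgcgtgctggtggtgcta
Rps12 (chr10:23787195-23787224, minus strand): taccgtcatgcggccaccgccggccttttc
Rplp0 (chr5:115559452-115559481, plus strand): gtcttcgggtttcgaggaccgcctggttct
Rpl22l1 (chr3:28805493-28805522, plus strand): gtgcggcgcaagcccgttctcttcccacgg
Rps27l (chr9:66946071-66946100, plus strand, 1 of 2 annotated starts): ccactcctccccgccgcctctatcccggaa

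A pyrimidine run of at least 8 bases covered the start in 17 of the 74 member promoters (23.0%), against 1268 of all 32851 promoters in the table (3.86%). In a 60-base window around the start, a run of that length was present in 36 of 74 (48.6%) and in 22.9% of all. The runs printed were 21 bases long in Rpl7a, 20 in Rpl27a (19 of them within the printed window), 18 in Rpl35, 17 in Rpl15, 13 in Rps10, 11 in Rpl28 and 10 in Rps6, the S6 kinase substrate. Annotated starts can lie some bases from the start used in the tissue, so a missing run says only that these letters are not in this window. Within the 300 bases from 250 before to 50 after the start, searched on both strands, CCGGAAG (a core sequence of ETS factors) was in 36.5% of member promoters and 8.86% of all. The YY1 core AAGATGG was in 16.2% and 6.34%. The TATA box, searched as TATAAA, was in 9.46% and 13.6%. CCGGAAG ends with letters that AAGATGG starts with, so 1 stretch can hold both. These matches are descriptions of letters and not of binding.

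The values per library are the abundances that the assembler gave to each transcript, treated here as a level per transcript length, summed per gene and scaled between libraries (scaled abundance). 79 members had a value in all 14 libraries, 3 in some and 4 in none. Among 18735 genes with any value, 1 member was among the 50 highest by median, 5 among the 100 highest, 26 among the 200 highest and 70 among the 500 highest. The median member level was 249 for the 47 large-subunit genes and 259.8 for the 32 small-subunit genes listed in all libraries. Together the members made up 4.16% to 4.84% of the abundance assigned to genes in a library.

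**Figure D1:**
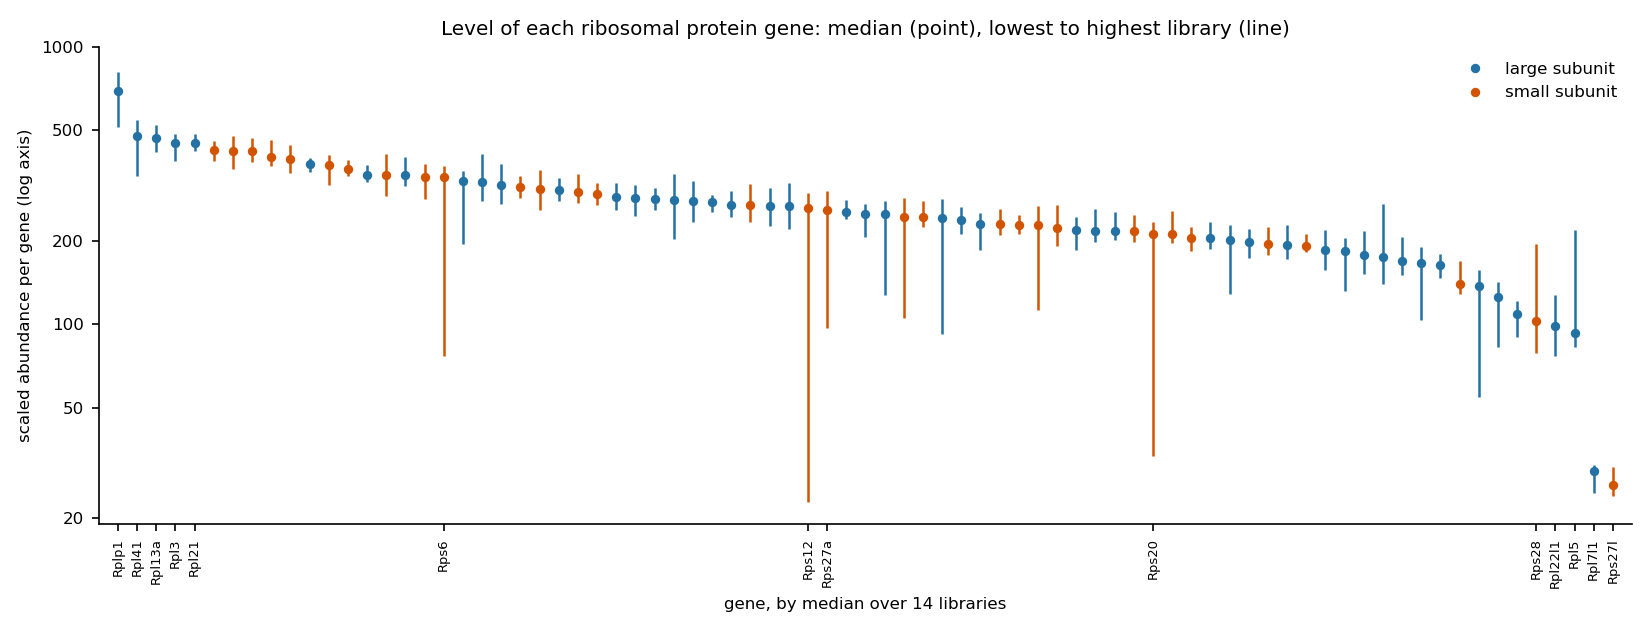
Scaled abundance per gene (log axis) of the 79 genes listed in all 14 libraries, with the median as a point, the lowest and highest library as the ends of the line, and the 5 highest, the 5 lowest and 4 other genes named. Rplp1 stands highest at a median of 695, Rpl7l1 and Rps27l lowest at 29.4 and 26.4, and the long downward lines of Rps6, Rps12 and Rps20 each come from 1 library.

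Of the stalk proteins, Rplp1 was the highest member of all. Its scaled abundance was 776, 693 and 654 in the wild-type vehicle libraries, 755, 810.0 and 551 in the mutant vehicle libraries, 513, 659, 785, 677 and 604 in the wild-type TAK-418 libraries and 697, 723 and 733 in the mutant TAK-418 libraries. The wild-type TAK-418 libraries ranged from the lowest value of all to one of the highest, so the groups overlapped. Rplp2, its partner in the stalk dimer, lay at 172 to 227 and Rplp0, which anchors the stalk to the large subunit, at 239.9 to 282. The next highest members by median were Rpl41, the smallest ribosomal protein, at 479, Rpl13a at 470.5, Rpl3 at 451 and Rpl21 at 449.5. Rpl13a, a large-subunit protein with a reported role in silencing inflammatory mRNAs, had 505, 487 and 423 in the wild-type vehicle libraries, 491, 522 and 450.4 in the mutant vehicle libraries, 426, 419, 477, 448 and 432 in the wild-type TAK-418 libraries and 464, 482 and 484 in the mutant TAK-418 libraries. The 2 lowest of the genes expressed in all libraries were the paralogs Rps27l and Rpl7l1, followed by Rpl5, Rpl22l1 and Rps28. This order holds for scaled abundance only. The assembled transcripts of Rpl5 averaged 3153 to 3208 bases except in wild-type TAK-418 libraries 1 and 4. Multiplied by this length in kilobases, Rpl5 had group means of 259 to 300, and Rps28 stayed low at 52.3 to 57.3. The authors' group FPKM was 193 to 209 at the main Rpl5 locus, 213 to 232 for Rps28 and 112 to 130 for Rpl22l1.

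Paralogs split into 3 kinds by level. Rpl22l1 was close to Rpl22: it had 125, 128 and 76.8 in the wild-type vehicle libraries, 105, 115 and 89.4 in the mutant vehicle libraries, 83.8, 79.1, 111, 88.5 and 96.7 in the wild-type TAK-418 libraries and 99.6, 96.5 and 104 in the mutant TAK-418 libraries. Rpl22, which restrains Rpl22l1 in other tissues, had 109, 121 and 112 in the wild-type vehicle libraries, 90.1, 116 and 109.7 in the mutant vehicle libraries, 92.8, 108, 99.5, 111 and 98.6 in the wild-type TAK-418 libraries and 107, 94.4 and 111 in the mutant TAK-418 libraries, and the ranges of this pair overlapped. Rps27l (24.02 to 30.6) and Rpl7l1 (24.6 to 31.03) lay far below Rps27 (234 to 321) and Rpl7 (255 to 292) in every library. The remaining paralogs were at or near 0. The heart and muscle form Rpl3l was listed in 12 libraries at no more than 1.36, where Rpl3 had 388 to 487, and the testis form Rpl39l was listed in 2 libraries at 0.178 and 0.615, where Rpl39 had 151 to 216. Rps4l, annotated as a transcribed pseudogene, was listed in 3 libraries at up to 0.671, where Rps4x had 269 to 324. Rpl10l, Rps12l1, Rps3a2 and Rps3a3 were listed in none, where Rpl10 had 258 to 310.5. Rpl36a, whose retrocopy-derived paralog Rpl36al lies outside the rule, had 173 to 221 and Rpl36al 111 to 153. Many members have processed copies in the genome, with pseudogenes named for 60 of the 86 in the annotation and up to 24 of them for 1 gene (Rps12 and Rpl31), and how reads of near-identical copies were shared is not given in the sources used here, so the levels of such genes are uncertain to that extent.

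Among the genes with known roles outside protein synthesis is Rpsa, which also serves as a laminin receptor. Its SD of log2 scaled abundance within groups, 0.06, was the smallest of the 79 members. With assembled length the smallest within-group SD was that of Rpl22, also 0.06, and Rpsa had 0.07. Rpl11, which together with Rpl5 and the 5S RNA restrains Mdm2, had 323, 305 and 276 in the wild-type vehicle libraries, 301, 319 and 281 in the mutant vehicle libraries, 274, 270.1, 300.4, 258 and 285 in the wild-type TAK-418 libraries and 280.2, 290.0 and 309.8 in the mutant TAK-418 libraries. Rps19, the gene most often mutated in Diamond-Blackfan anaemia, had 169, 167 and 133 in the wild-type vehicle libraries, 152, 166 and 129.6 in the mutant vehicle libraries, 129.8, 135, 163, 138 and 129 in the wild-type TAK-418 libraries and 132, 151 and 141 in the mutant TAK-418 libraries. In both genes the groups overlapped, and wild-type vehicle library 1 was the highest. Rps14, which is lost in the 5q- syndrome, had 318 to 406 and Rpl17, at the exit of the peptide tunnel, 327 to 375.

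Part of the spread of single members followed the length of the transcripts that were assembled. Assembled length is here the mean length of a gene's transcripts in a library, weighted by their abundance. Rps6, the small-subunit protein phosphorylated by the S6 kinases downstream of mTORC1, had 365, 333 and 322 in the wild-type vehicle libraries, 351, 369 and 339 in the mutant vehicle libraries, 76.7, 308, 369, 329 and 317 in the wild-type TAK-418 libraries and 338, 367 and 373 in the mutant TAK-418 libraries. The single low value, in wild-type TAK-418 library 1, came with an assembled length of 3685 bases, where the other 13 libraries had 682 to 740.0. Multiplied by its assembled length in kilobases, Rps6 had 269, 242 and 241 in the wild-type vehicle libraries, 268, 271 and 242 in the mutant vehicle libraries, 269, 219, 268, 223 and 233 in the wild-type TAK-418 libraries and 238, 262 and 268 in the mutant TAK-418 libraries, and library 1 was then among the highest.

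Rps12 and Rps20 showed the same in that library. Rps12 had a scaled abundance of 22.8 there, at an assembled length of 6862 bases, and 238 to 298 in the other libraries, at 549 to 575 bases. Rps20 had 33.4 at 3293 bases, and 175 to 234 at 399 to 417 bases elsewhere. Rpl5 went the other way. It had 94.5, 95.6 and 85.3 in the wild-type vehicle libraries, 93.1, 102 and 85.2 in the mutant vehicle libraries, 219, 87.1, 82.9, 213 and 85.9 in the wild-type TAK-418 libraries and 88.3, 92.4 and 95.7 in the mutant TAK-418 libraries. The pair of high values, in wild-type TAK-418 libraries 1 and 4, came with 1153 bases, and the other libraries with 3153 to 3208. Rps27a, a fusion of ubiquitin with a small-subunit protein, had 290.4, 289 and 235 in the wild-type vehicle libraries, 303, 294 and 240.1 in the mutant vehicle libraries, 96.98, 145, 261, 146 and 254 in the wild-type TAK-418 libraries and 249, 272 and 289 in the mutant TAK-418 libraries. Its 3 low values, in wild-type TAK-418 libraries 1, 2 and 4, came with lengths of 1556, 998 and 998 bases, and all others with 492 to 540.0. Over 79 members, 12 had a within-group SD of log2 scaled abundance above 0.25, and 0 had one above 0.25 after multiplication by length. The highest SD was 0.99 (Rps12) before and 0.25 (Rpl22l1) after. The second scale was chosen after the lengths had been seen.

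**Figure D2:**
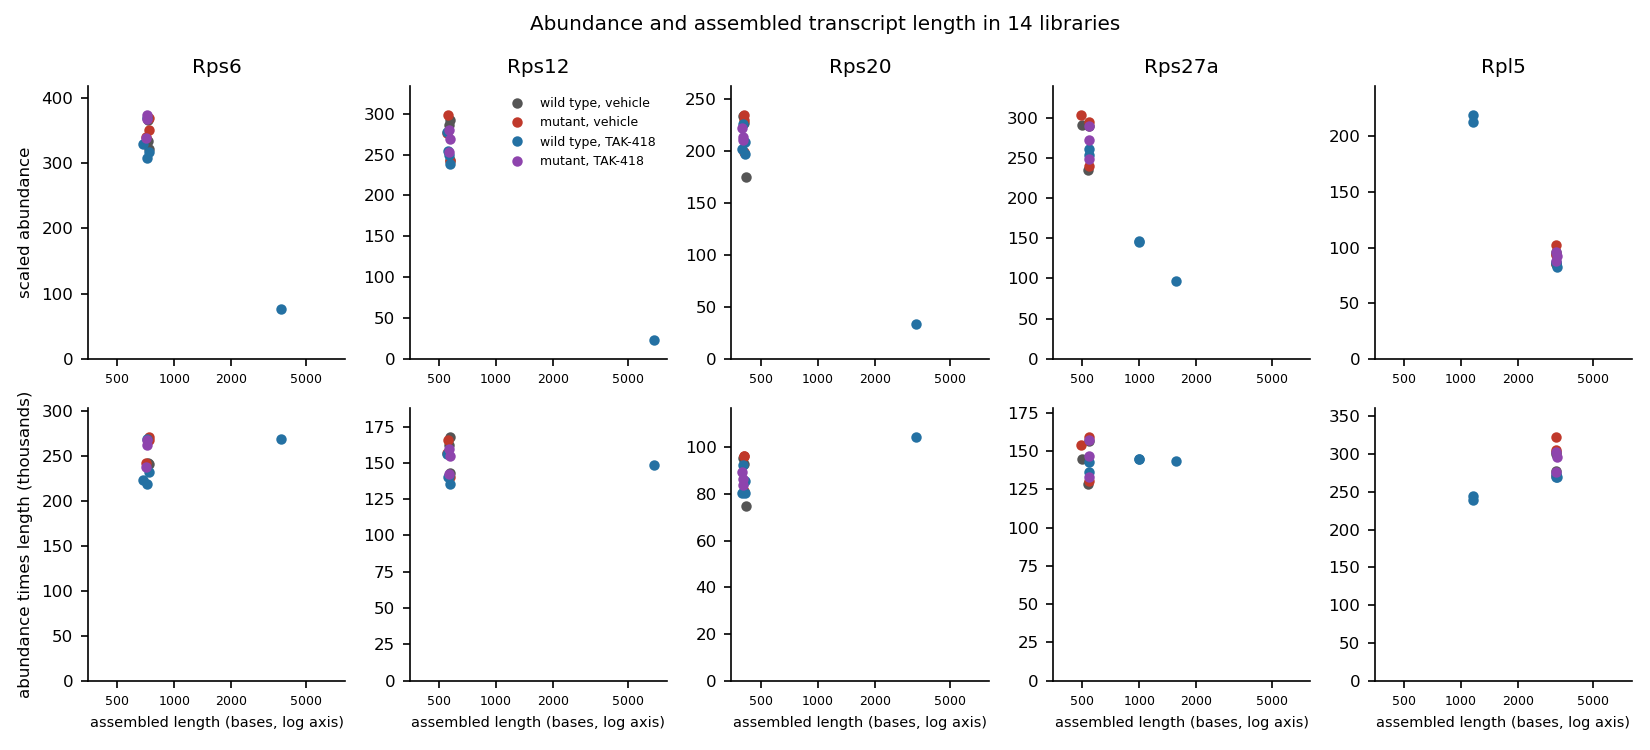
Scaled abundance (upper row) and abundance times assembled length (lower row, abundance times kilobases) against assembled transcript length (log axis) for Rps6, Rps12, Rps20, Rps27a and Rpl5, 1 point per library coloured by group. The wild-type TAK-418 libraries that stand apart in the upper row have another assembled length, and in the lower row no library is far from the rest.

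The members moved together from library to library. The median deviation of the 79 members from their own means, on the log2 scale of scaled abundance, was 0.12, 0.12, −0.08 in the wild-type vehicle libraries, 0.08, 0.15, −0.07 in the mutant vehicle libraries, −0.12, −0.07, 0.05, −0.10, −0.04 in the wild-type TAK-418 libraries, −0.04, 0.05, 0.08 in the mutant TAK-418 libraries. In wild-type vehicle libraries 1 and 2, 71 and 75 of the 79 members were above their own mean, and in library 3 of the same group 15 were. In the mutant vehicle group 66, 76 and 12 members were above it, in the wild-type TAK-418 group 8, 11, 57, 8 and 21, and in the mutant TAK-418 group 26, 56 and 69. Every group held libraries on both sides. Large-subunit and small-subunit members had the same sign of deviation in all 14 libraries. The ratio of the large-subunit median to the small-subunit median lay between 0.867 and 0.985.

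Genes that are no ribosomal protein genes moved in the same way when their transcripts were short. These were 215 other genes with an assembled length under 700 bases and a mean log2 level above 5 (a level of 32). Their median deviation was 0.10, 0.13, −0.04 in the wild-type vehicle libraries, 0.11, 0.13, −0.06 in the mutant vehicle libraries, −0.08, −0.08, 0.06, −0.10, −0.01 in the wild-type TAK-418 libraries, −0.04, 0.05, 0.09 in the mutant TAK-418 libraries. The sign was that of the ribosomal protein genes in all 14 libraries. It was smaller among 996 genes of 1200 to 2500 bases, at no more than 0.05 in either direction, and among 442 genes of 5000 bases or more the sign was the opposite in all 14 libraries. The length classes were chosen after the data had been seen, and the part of transcript length in the movement of the ribosomal protein genes was not tested.

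**Figure D3:**
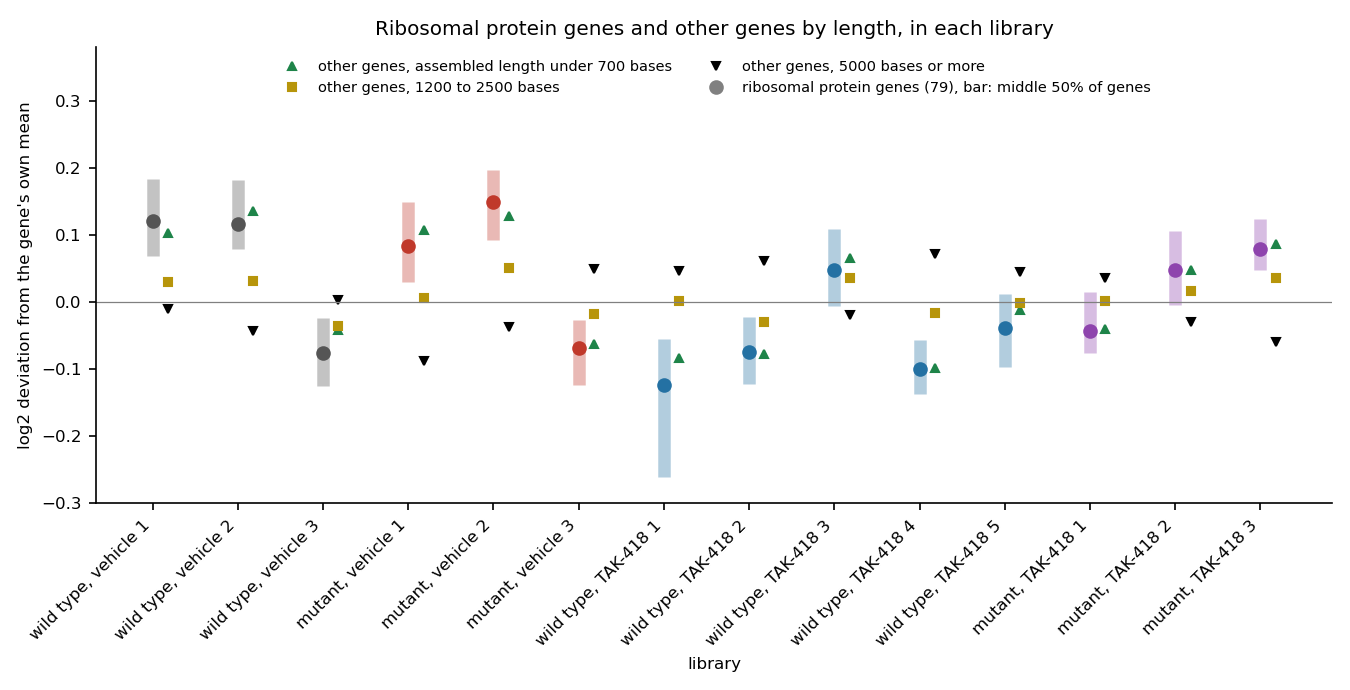
Median log2 deviation from each gene's own mean in each of the 14 libraries for the 79 ribosomal protein genes (circles, bars for the middle 50% of genes) and for other genes in 3 classes of assembled length (triangles and squares). The circles and the upward triangles of genes under 700 bases lie close together in every library, the squares of 1200 to 2500 bases lie nearer 0, and the downward triangles of genes of 5000 bases or more lie across 0 from them.

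The first question of the design is whether the Kmt2d mutation changed expression under vehicle. The members lay on both sides of 0: 36 of 81 tested members were higher in mutants, at a background of 49.8% of all genes, and 45 were lower, and their median log2 difference was −0.004, beside 0 for all 16580 genes. On abundance times length, 48 of 81 were higher (background 50.4%) and the median was 0.01, so the side that held most members turned. On values as deposited, without scaling, 6 of 81 were higher (background 28.5%) and the median was −0.09, where the median of all genes was −0.08. With limma, 0 of 81 members had an adjusted p under 0.05, at a background of 0.0% of all genes, and 0 had an unadjusted p under 0.05, at a background of 5.48%. The largest differences were those of Rps25 and Rpl36. Rps25, a small-subunit protein used by viral internal ribosome entry sites, had 118, 137 and 237 in the wild-type vehicle libraries, 266, 262 and 226 in the mutant vehicle libraries, 114, 232, 179, 229 and 112 in the wild-type TAK-418 libraries and 247, 139.7 and 260.4 in the mutant TAK-418 libraries. Wild-type vehicle libraries 1 and 2 were low and library 3 lay within the mutant range, and the log2 difference was 0.68 (SE 0.35, limma adjusted p = 0.927). The lengths were 1295 and 1120.0 bases in the low libraries and 577 to 590.0 in the other vehicle libraries, and on abundance times length the difference was −0.01 (SE 0.06). Rpl36 was higher in all mutant vehicle libraries, at 156, 157 and 141, than in the wild-type ones, at 140.4, 135 and 72.3, with a difference of 0.44 (SE 0.35, limma adjusted p = 0.998) that became −0.08 (SE 0.10) with length. It was the 1 member of 81 whose mutant libraries were entirely above, at a background of 4.41%. The largest falls were those of Rpl19 at −0.18 (SE 0.22, limma adjusted p = 1.00) and Rpl3 at −0.15 (SE 0.08, limma adjusted p = 0.927), and with length they had −0.03 (SE 0.09) and −0.14 (SE 0.07).

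The second question is what TAK-418 did in the mutants. Of 81 members, 24 were higher under TAK-418, at a background of 50.7%, and 57 lower, with a median log2 difference of −0.03 (all genes 0.002). With length, 14 of 81 were higher (background 49.8%) and the median was −0.04, and on unscaled values 35 of 81 were higher (background 56.9%) and the median was −0.01. In limma 0 members had an adjusted p under 0.05, at a background of 0.00603%, and 1 had an unadjusted p under 0.05, at a background of 4.4%. That one was Rpl31, with 141, 138 and 118 in the wild-type vehicle libraries, 137, 138 and 112 in the mutant vehicle libraries, 128, 124, 123, 127 and 123 in the wild-type TAK-418 libraries and 82.9, 134 and 88.1 in the mutant TAK-418 libraries. Mutant TAK-418 libraries 1 and 3 were low, at assembled lengths of 1925 and 1963 bases, and library 2 lay with the other groups at 1171. Its log2 difference was −0.37 (SE 0.15, limma adjusted p = 1.00), and with length 0.06 (SE 0.09). The lowest difference was that of Rpl35, −0.55 (SE 0.29, limma adjusted p = 1.00), which came from mutant TAK-418 library 2 at 92.1 against 219 to 283 elsewhere, and was −0.03 (SE 0.09) with length. The highest were Rpl3 at 0.11 (SE 0.08, limma adjusted p = 1.00) and Rpl26 at 0.11 (SE 0.14, limma adjusted p = 1.00), and with length they had 0.09 (SE 0.07) and −0.06 (SE 0.15).

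In wild-type mice most members had a lower group mean under TAK-418: 79 of 81 were below their vehicle level, with a median log2 difference of −0.12, where 51.1% of all genes were below and the median of all was −0.004. No single member passed the threshold. In limma 0 of 81 members were called, as were 0.0% of all genes, and 6 of 81 (7.41%) had an unadjusted p under 0.05, at a background of 8.42%, among them Rpl28, Rps27a and Rps23. The library sums of the members overlapped between the groups, at 22564, 22519 and 19719 in wild-type vehicle and 17966, 19586, 21599, 19387 and 20011 in wild-type TAK-418 libraries, with vehicle library 3 inside the treated range. Without wild-type vehicle library 3 the median became −0.187 with 32 members at an unadjusted p under 0.05 (background 8.8%), and without library 2 it became −0.0765 with 2 (background 7.71%). On abundance times length, 2 of 81 were higher (background 53.1%) and the median was −0.12, with 11 at an unadjusted p under 0.05 (background 9.2%). On unscaled values 7 of 81 were higher (background 54.7%) and the median was −0.09. Beside this, the 215 short genes outside the set had a median of −0.12, the 996 genes of 1200 to 2500 bases −0.02 and the 442 genes of 5000 bases or more 0.05. The part of transcript length in the lower level of the members was not tested.

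Single members in the same comparison followed their assembled length. Rpl28, a large-subunit protein, had 252, 274 and 260.4 in the wild-type vehicle libraries, 278, 271 and 265 in the mutant vehicle libraries, 127, 156, 184, 229 and 246 in the wild-type TAK-418 libraries and 241, 250.5 and 248 in the mutant TAK-418 libraries. All 5 treated wild-type libraries were below the 3 vehicle libraries, and libraries 1, 2 and 3 were lowest, at lengths of 1102, 880.0 and 788 bases against 483 to 534 elsewhere. Its log2 difference was −0.51 (SE 0.17, limma adjusted p = 0.441), and with length −0.01 (SE 0.06). Rps12 had −0.79 (SE 0.66, limma adjusted p = 0.759) and −0.13 (SE 0.07) with length, and Rps27a −0.68 (SE 0.27, limma adjusted p = 0.520) and −0.004 (SE 0.08). Rpl5 had the highest value, 0.43 (SE 0.32, limma adjusted p = 0.736), and turned to −0.18 (SE 0.06) with length, where its 5 treated libraries were all below the vehicle ones. All treated libraries lay below all vehicle libraries in 3 of 81 members (3.7%), at a background of 2.38%. With length this held in 4 of 81 (4.94%), at a background of 2.86%. The reverse order, treated entirely above, was seen in 0 of 81 members on both scales, at backgrounds of 3.94% and, with length, 3.6%.

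Under TAK-418, most members had a higher group mean in mutants than in wild types. Of 81 members, 75 were higher, with a median log2 difference of 0.09 against 0.003 for all genes, of which 51.1% were higher. With length, 76 of 81 were higher (background 47.7%) and the median was 0.08. Values used as deposited, without scaling, turned this to 41 of 81 higher (background 29.4%) and a median of 0.000253, but moved the median of all genes to −0.07, so the members remained above the median of all genes. In limma 0 members were called, at a background of 0.0121%, and 8 of 81 (9.88%) had an unadjusted p under 0.05, at a background of 4.95%. Of these 8 members, 7 were higher in mutants. Rps23, at the decoding centre, had 354, 356 and 336 in the wild-type vehicle libraries, 374, 340.1 and 314 in the mutant vehicle libraries, 287, 323, 342, 327 and 283 in the wild-type TAK-418 libraries and 346, 377 and 366 in the mutant TAK-418 libraries. The 3 mutant TAK-418 libraries were above all 5 treated wild-type libraries, with a difference of 0.22 (SE 0.07, limma adjusted p = 0.925), and with length 0.17 (SE 0.08). Rpl7 likewise had 292, 287 and 279.6 in the mutant and 260.4, 258, 273, 268 and 256 in the wild-type TAK-418 libraries, a difference of 0.12 (SE 0.05, limma adjusted p = 0.925), and with length 0.10 (SE 0.05). Mutant values entirely above wild-type values were seen in 9 of 81 members (11.1%), at a background of 2.19%, and with length in 5 of 81 (6.17%) at a background of 1.94%; 0 of 81 were entirely below, at a background of 2.41%. Rps12 had the highest difference, 0.76 (SE 0.66, limma adjusted p = 0.925), and Rpl5 the lowest, −0.42 (SE 0.32, limma adjusted p = 0.925), and with length these were 0.08 (SE 0.07) and 0.17 (SE 0.06). The short genes outside the set had a median of 0.08 and the genes of 5000 bases or more −0.05.

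The difference between the drug effects, mutants minus wild types, had a median of 0.11 over the members, with 68 of 81 above 0 (background 51.1%), beside 0.004 over all genes. With length, 69 of 81 were above 0 (background 48.1%) and the median was 0.09. With limma's interaction term, 0 members were called, at a background of 0.00603%, and 1 had an unadjusted p under 0.05, at a background of 4.43%: Rps23 at 0.25 (SE 0.11, limma adjusted p = 0.976), and with length 0.17 (SE 0.12). Leaving out single libraries moved this median between 0.0329, without mutant vehicle library 3, and 0.171, without wild-type vehicle library 3. The short genes outside the set had 0.09.

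The other 2 contrasts cross genotype and treatment, as the authors' tables do. Treated mutants against vehicle wild types had 28 of 81 members higher, at a background of 49.8%, and a median of −0.03. With length, 18 of 81 were higher (background 50.3%) and the median was −0.03, and on unscaled values 7 of 81 were higher (background 31.1%) and the median was −0.09, where all genes had −0.06. In limma 0 were called, at a background of 0.0241%, and 1 (Rpl31) had an unadjusted p under 0.05, at a background of 5.37%. The lowest differences were Rpl35 at −0.58 (SE 0.29, limma adjusted p = 0.938) and Rpl31 at −0.41 (SE 0.15, limma adjusted p = 0.840), and with length they had −0.04 (SE 0.09) and −0.01 (SE 0.09). Vehicle mutants against treated wild types had 79 of 81 members higher, at a background of 50.7%, and a median of 0.11, which was 0.00159 with 41 higher (background 29.9%) on unscaled values, where all genes had −0.09. With length, 79 of 81 were higher (background 47.2%) and the median was 0.12. In limma 0 were called, at a background of 0.0%, and 6 had an unadjusted p under 0.05, at a background of 9.24%. Rpl28 had the smallest p of all members, at 0.56 (SE 0.17, limma adjusted p = 0.353), with all 3 vehicle mutants above all 5 treated wild types, the 1 member of 81 of that kind at a background of 2.66%; with length the difference was 0.05 (SE 0.06). That median was 0.0597 without mutant vehicle library 2 and 0.179 without library 3. These contrasts share samples with those before them, so they add no independent evidence.

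**Figure D4:**
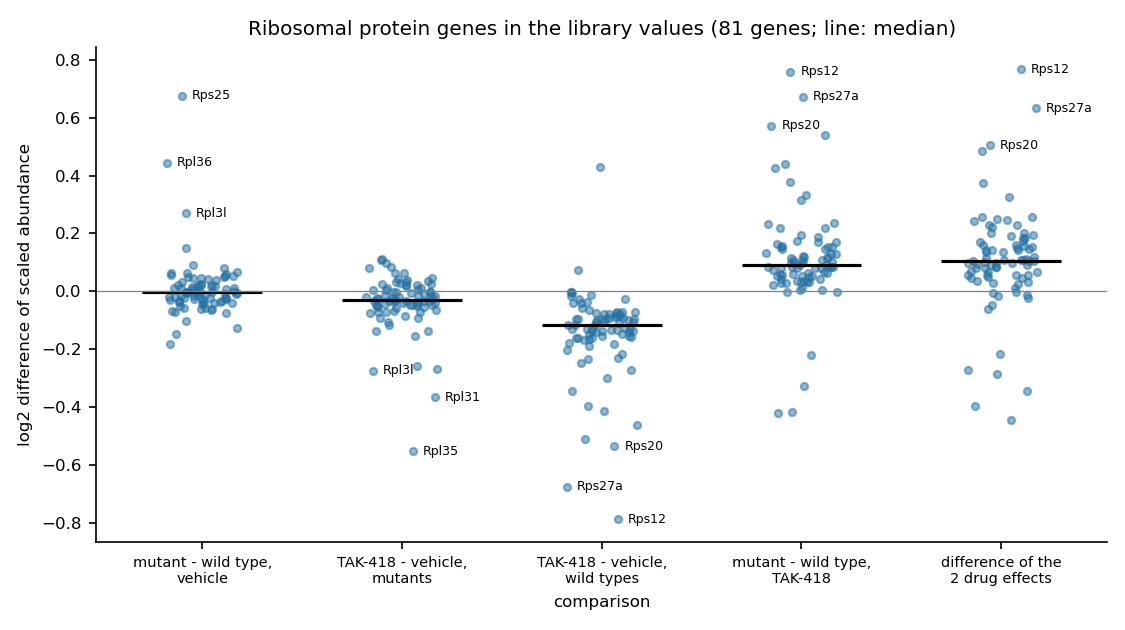
Log2 difference of scaled abundance for each of the 81 tested members (points) in 5 comparisons, with the median as a line and the 3 genes farthest from 0 named. The medians are near 0 for genotype under vehicle (−0.09 on unscaled values) and for the drug in mutants, −0.12 for the drug in wild types and 0.09 for genotype under TAK-418 (0.00 on unscaled values), and no point passed limma's adjusted threshold.

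The authors' deposited tables compare group FPKM values, with 88 loci that name a member. 63 loci name the member alone and 25 name other genes as well, 22 of them with a named small nucleolar RNA, since many ribosomal protein introns encode such RNAs. Only 1 locus was called at q under 0.05, in 2 of the 4 tables. It joins Rpl27a with the small nucleolar RNA Snora3 and with Gm24888 and Gm47284 (chr7:109519147-109522367, plus strand, mm10). In the authors' deposited table for vehicle, its FPKM was 166 in wild types and 242 in mutants (log2 fold change 0.54, q = 0.0270), at a background of 0.224% of 32966 tested loci. In the authors' deposited table for TAK-418, it was 211 in wild types and 165 in mutants (−0.35, q = 0.0240), at a background of 0.218% of 32634 loci. So the mutant value was the higher one under vehicle and the lower one under TAK-418. The difference between these 2 effects was not tested on the FPKM values.

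The assembled transcripts of Rpl27a alone, a large-subunit protein, did not follow that order in the libraries. They had a scaled abundance of 411, 384 and 307 in the wild-type vehicle libraries, 372, 401 and 307 in the mutant vehicle libraries, 334, 278, 320.3, 308 and 309 in the wild-type TAK-418 libraries and 304, 374 and 332 in the mutant TAK-418 libraries. The vehicle groups overlapped, with a log2 difference of mutants from wild types of −0.03 (SE 0.12, limma adjusted p = 1.00), and so did the TAK-418 groups, with 0.12 (SE 0.11, limma adjusted p = 0.925). With length these were 0.09 (SE 0.12) and 0.26 (SE 0.11). The abundances leave out what the assembler did not place in a transcript of the gene, while the FPKM of the joint locus counts 4 genes; which of them moved cannot be told from the table. Among loci that name a member alone, 0 were called in any of the 4 tables.

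The locus of Rps3 and Snord15b had the smallest p in the authors' deposited table of treated wild types against vehicle mutants, at an FPKM of 174 and 223 (log2 fold change 0.36, p = 0.00365, q = 0.314), a table in which 0.611% of 32236 loci were called. In the library values Rps3 had 0.10 (SE 0.08, limma adjusted p = 0.704) in that contrast. In the authors' deposited table of wild-type vehicle against mutant TAK-418, where 0.324% of 33991 loci and 0 member loci were called, the smallest p was that of the Rps4l locus, with an FPKM of 17.9 and 24.6 (p = 0.135, q = 1.00). That locus spans chr6:148232430-148444389, far beyond the annotated Rps4l (chr6:148354656-148355598), whose own transcripts were listed in 3 libraries.

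Among 80 member loci with an FPKM of at least 5 in both groups, a minimum chosen after the data were seen, nearly all were lower in treated wild types than in either mutant group. In the authors' deposited tables, 79 of 80 (98.8%) were higher in mutants than in wild types under TAK-418, where 48.6% of all such loci were, with a median log2 fold change of 0.08 and the middle 50% from 0.06 to 0.11. The 1 lower locus was that of Rpl27a. Likewise 79 of 80 were higher in vehicle mutants than in treated wild types (background 50.2%, median 0.10). Under vehicle 33 of 80 (41.2%) were higher in mutants, at a background of 48.7%, and 27 of 80 (33.8%) were higher in treated mutants than in vehicle wild types, at a background of 51.9%; both medians were −0.01. Tables that share a group share its libraries.

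**Figure D5:**
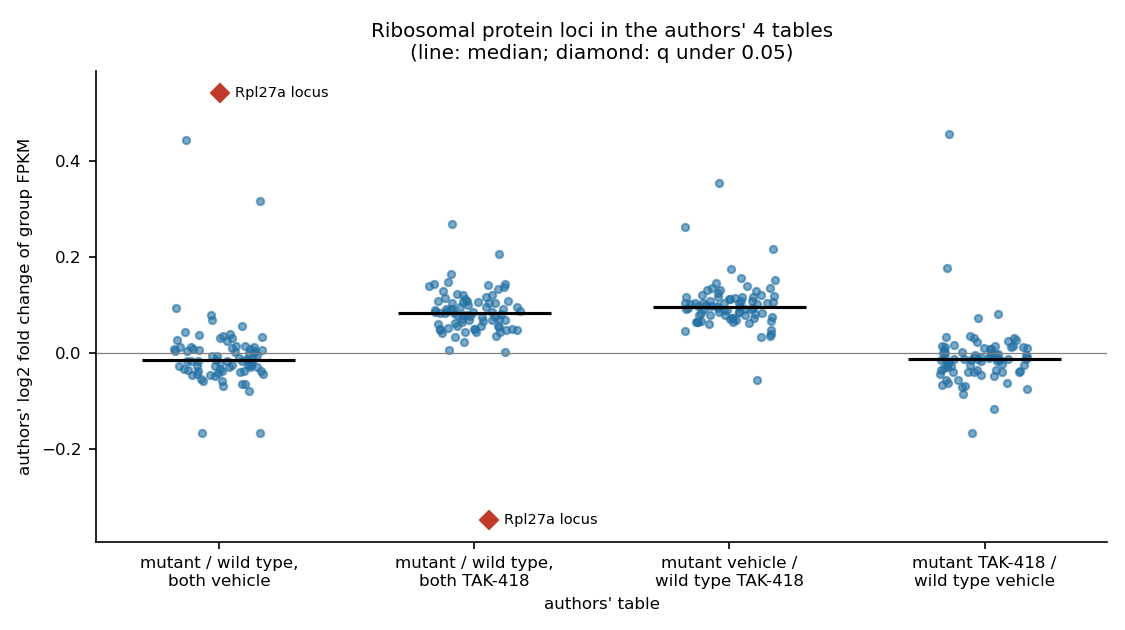
The authors' log2 fold change of group FPKM for 80 ribosomal protein loci in each of the 4 deposited tables, with medians as lines and loci at q under 0.05 as diamonds. The points lie around 0 in both tables with vehicle wild types and, but for 1 locus each, above 0 in both tables with treated wild types, and the Rpl27a locus is called in opposite directions.

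Genes around the ribosome were taken as lists. No gene of any list was called by limma in any of the 7 contrasts. In wild types under TAK-418, the 4 listed ribosomal proteins outside the rule had a median of −0.11 with 0 of 4 higher, and the 77 tested mitochondrial ribosomal proteins, which serve the separate ribosomes of mitochondria, had −0.10 with 9 higher. The 19 other TOP mRNAs had −0.07 with 5 higher. The 42 translation factors had −0.01 with 17 higher, the 58 tested ribosome biogenesis genes −0.02 with 25 higher, and the 20 genes of mTORC1 and MYC control 0.05 with 15 higher. Unadjusted p under 0.05 was reached by 0 of 4, 3 of 77, 1 of 19, 2 of 42, 0 of 58 and 6 of 20, at the background of 8.42%. With length the same counts, in the same order, were 0 of 4, 5 of 77, 3 of 19, 4 of 42, 7 of 58 and 2 of 20, at a background of 9.2%, so the biogenesis count went from 0 to 7 and the count of the mTORC1 and MYC list went from 6 to 2. Under TAK-418, mutants exceeded wild types by a median of 0.11 in the mitochondrial list and 0.004 in the biogenesis list. Under vehicle the medians of all 6 lists lay between −0.02 and 0.02.

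Among their most abundant genes, the elongation factor Eef1a1 had 1902, 1881 and 1798 in the wild-type vehicle libraries, 1895, 1988 and 1809 in the mutant vehicle libraries, 553, 1816, 1869, 1835 and 1788 in the wild-type TAK-418 libraries and 1826, 1920.4 and 1880.0 in the mutant TAK-418 libraries. Wild-type TAK-418 library 1 was low in it, as it was in Rps6, Rps12 and Rps20. Tpt1, another TOP mRNA, had 279 in wild-type TAK-418 library 1 and 526 to 597 in the others. The biogenesis genes Rrp1 (168 to 207) and Npm1 (159 to 182) had no such low library, nor did Rheb (104 to 142), the activator of mTORC1, or Larp1 (35.2 to 38.4), which binds the TOP motif. In the mitochondrial list, Mrps33 had 81.7 to 103 and Mrps21 15.01 to 72.5.

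Facts of the libraries bear on these values. Kmt2d, the targeted gene, had 13.99, 14.2 and 13.8 in the wild-type vehicle libraries, 10.6, 10.7 and 14.4 in the mutant vehicle libraries, 13.8, 17.99, 12.5, 14.4 and 17.4 in the wild-type TAK-418 libraries and 14.6, 13.3 and 9.34 in the mutant TAK-418 libraries, so the genotypes overlapped; the abundance covers the whole gene, and where the trap lies in it was not used here. Kdm1a, the target of TAK-418, had 29.9 to 35.8. The libraries held 33819 to 48428 assembled transcripts, the most in wild-type TAK-418 library 1. From the step between low abundances, the depths were estimated at 35.1 M to 60.6 M in 13 libraries and 167 M in that one. In 2 libraries, mutant vehicle 1 and mutant TAK-418 2, 59.2% and 67.0% of the abundance fell on annotated genes, and at least 92.0% in the others. Markers of hippocampal excitatory neurons, 9 genes, summed to 2579 to 3827. The 9 choroid plexus markers summed to 6515 in wild-type vehicle library 3, 5083 in mutant vehicle library 1, 920.0 in mutant vehicle library 3 and 615 in mutant TAK-418 library 1, and to 17.7 to 47.1 elsewhere, with up to 5 of 9 at 0. By group the range was 22.6 to 6515 in wild-type vehicle, 47.1 to 5083 in mutant vehicle, 17.7 to 46.1 in wild-type TAK-418 and 24.3 to 615 in mutant TAK-418 libraries. The median deviation of the ribosomal protein genes was −0.08 in wild-type vehicle library 3 and 0.08 in mutant vehicle library 1. It was −0.07 in mutant vehicle library 3 and −0.04 in mutant TAK-418 library 1. The part of choroid plexus RNA in these deviations was not tested. Without the 2 libraries highest in these markers, the median of the drug effect in wild types was −0.188. There, 29 members had a limma unadjusted p under 0.05 (background 9.06%) and 0 were called. The median of genotype under TAK-418 was 0.09. The median became −0.09 for genotype under vehicle, −0.09 for treated mutants against vehicle wild types and 0.19 for the interaction.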

How the data were processed

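Hippocampal RNA-seq libraries of 14 mice were used, as 2 kinds of deposited file. Per the submitters' processing notes the tools were TopHat2 2.1.0, CLASS 2.1.7 and FastQC, with mm10; further settings are not given in the sources used here. Per the file headers, the authors' per-library files hold assembled transcripts, each with an abundance score from CLASS. The authors' 4 comparison tables hold FPKM values of 2 groups per locus with a log2 fold change, p-value and q-value, per the file headers; how the groups' replicates were pooled is not stated there.

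Transcripts were assigned to GENCODE M21 genes by shared introns, or by at least 50% overlap for single-exon transcripts on either strand where none was given, so antisense genes cannot always be told apart. Abundances were summed per gene and scaled by the median of ratios over 13274 genes listed in all 14 libraries. Values were tested as log2(value + 0.878), the 10th percentile of values above 0, which understates changes of low genes, for 16580 genes listed in at least 3 libraries, with limma 3.58.1 (R 4.3.3) on 4 group means with 10 residual degrees of freedom and Benjamini-Hochberg adjustment over all genes at 0.05. No read counts were used, and depth was judged from the step between low abundances (tolerance 0.1; 94.6% to 99.6% of the values tried fell on it). Tested on simulated data with 16580 genes, the fit recovered 72%, 75% and 79% of genes changed by 1 log2 unit. Of those changed by 2 it recovered 91%, 96% and 93%. The order is genotype under vehicle, the drug in wild types and genotype under TAK-418. In the same order, 12, 6 and 16 unchanged genes were called. Genes were simulated as independent, with changes far above the members' medians. The recovery therefore says nothing about changes of the members' size.

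The members and the lists were chosen with earlier results of these data known. Genes named are the paralog pairs, the stalk proteins, Rpsa, Rps6, Rpl5, Rpl11, Rps19, Rpl13a, Rps27a, Rps14 and Rpl17, the 5 highest and 5 lowest, members missing from some library, per contrast those with the smallest p and the 2 largest and 2 smallest differences, and in the authors' tables called loci and those with the smallest p. Rps25, Rps12, Rps20 and others were also named for their assembled length, after their values were seen. Chosen after seeing the data were abundance times assembled length, the length classes with their level minimum of 32, the FPKM minimum of 5, the run minimum of 8 and the 3 motifs. Of the 74 promoter windows, 61 had their bases from the start on within a GENCODE transcript of the same gene. In only 25 windows were these bases the first bases of such a transcript. Some single-gene results are not reported here. Alternatives tried were other scalings, pseudocounts, filters, transcript choices and sets of libraries.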

Additional observations from a re-analysis of the deposited data

Results flagged for a closer look

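In the group of 5 wild-type TAK-418 libraries, 15 of 79 members had a scaled abundance in which 1 library stood apart from the other 4 by more than Dixon's 95% critical value, where chance alone gives about 1 in 20; the other groups have 3 libraries and were not examined. After multiplication by assembled length 14 of 79 did. No share over all genes is at hand for this screen, and the members move together between libraries. The counts therefore cannot be read as particular to the members. On scaled abundance, library 1 was the low one for Rps12 (22.8), Rps20 (33.4), Rps6 (76.7), Rpl18 (103), Rpl23a (129) and Rpl27 (132). Each of these 6 genes had its greatest assembled length there, from 737 bases in Rpl27 to 6862 in Rps12. Library 3 was the high one for Rps2 (462), Rps3 (329), Rpl35 (279), Rps9 (253), Rpl32 (233) and Rps19 (163), and the low one for Rpl7l1 (24.6), at 2291 bases. The members' share of abundance times length also stood apart in library 3, at 1.13% against 1.01% to 1.04% in the other treated wild types, and lay within the range of the other groups.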

How the results depend on the processing

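No paired analysis was possible because the labels give no replicate numbers; those used here follow the order of the deposit. Over 181 fits of the 7 contrasts and their alternatives, 0 called a member, with a smallest adjusted p of 0.0920 (treated mutants against vehicle wild types, without mutant TAK-418 library 2). On values as deposited without scaling, the members' median was −0.0936 for genotype under vehicle, 0.0003 for genotype under TAK-418 and 0.0016 for vehicle mutants against treated wild types, where the medians of all genes moved to −0.08, −0.07 and −0.09. Leaving out each library in turn gave medians of −0.0651 to 0.0560 for genotype under vehicle, −0.0871 to 0.0261 for the drug in mutants, −0.187 to −0.0765 for the drug in wild types, 0.0671 to 0.135 for genotype under TAK-418, −0.0931 to 0.0131 where mutants on TAK-418 were set against wild types on vehicle, 0.0597 to 0.179 for vehicle mutants against treated wild types and 0.0329 to 0.171 for the interaction. Those for genotype under vehicle, the drug in mutants and treated mutants against vehicle wild types crossed 0. In the authors' tables the Rpl27a call was lost, leaving 0 called loci instead of 1 in each of the 2 tables, when only loci naming 1 gene were used, since its locus names 4. Depth is known only as an estimate, and 3 to 5 libraries a group limit the precision: an exact test of 3 against 3 cannot go below 0.1.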
